A study of Mus musculus with 12 samples.

Results

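The DCIR and Dectin-2 lectin cluster of mouse chromosome 6 was followed through its 8 genes Clec4a1, Clec4a2, Clec4a3, Clec4a4, Clec4b1, Clec4n, Clec4d and Clec4e, chosen by symbol out of 27179 genes in the count table. All 8 had a row under their Entrez Gene identifier, and all 8 were among the 13415 genes kept for testing. RNA sequencing had been done on conventional dendritic cells of type 1 (cDC1) and type 2 (cDC2), the subsets that specialise in priming CD8+ and CD4+ T cells, taken from the spleens of female C57/BL6 mice without stimulation in culture. Each of the 4 groups had 3 libraries: cDC1 KO, cDC1 WT, cDC2 KO and cDC2 WT. KO mice carry the label Zfp366-/- and WT mice were wild type. DC-SCRIPT, the product of Zfp366, is a nuclear zinc finger protein. The labels number 6 mouse pools, 3 for each genotype, and every pool gave a cDC1 and a cDC2 library; the number of animals in a pool, their age and the deleted part of the gene are not given in the sources used here.

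The proteins are C-type lectin-like receptors of myeloid cells, with a single carbohydrate-recognition domain outside the membrane. Clec4a2 (DCIR1) and Clec4a4 (DCIR2) carry an inhibitory tyrosine motif in their cytoplasmic tail and recruit phosphatases such as SHP-1, the product of Ptpn6. Clec4b1 (DCAR), Clec4n (Dectin-2), Clec4d (MCL) and Clec4e (Mincle) signal through the FcR gamma chain, encoded by Fcer1g, to the kinase Syk and the adaptor CARD9. Dectin-2 binds fungal mannans and Mincle binds a glycolipid of mycobacteria. Clec4a3 (DCIR3) and Clec4a1 (DCIR4) are relatives of DCIR. In the mouse spleen the antibody 33D1, which recognises DCIR2, is a classical marker of cDC2.

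Libraries held 11330503 to 36761685 counted reads. Levels are in CPM, the reads of a gene relative to its library's total after TMM scaling, and CPM per kb divides this by the deposited gene length. Differences are log2 fold changes from edgeR's quasi-likelihood test, with adjusted p-values by Benjamini-Hochberg over the 13415 genes, and a gene was called below 0.05. The subset labels were checked by marker genes: 8 of 8 cDC1 markers were called higher in cDC1 than in cDC2 in either genotype. Of the 8 cDC2 markers, 5 were called lower in cDC1 among the KO libraries, while Itgam, Cd4 and Clec10a did not pass, and 8 were called lower in cDC1 among the WT libraries. Zfp366 itself had 45.4 to 48.8 CPM in cDC1 KO, against 67.5 to 152 CPM in cDC1 WT, and 55.0 to 80.6 CPM in cDC2 KO, against 52.6 to 62.4 CPM in cDC2 WT.

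The cDC2 libraries numbered 1 went against their genotype labels. Apold1, an endothelial regulator whose level separated the genotypes in cDC1, had 47.6 CPM in the library labelled cDC2 KO replicate 1 and 1.09 and 0.881 CPM in cDC2 KO replicates 2 and 3. It had 0.806 CPM in the library labelled cDC2 WT replicate 1 and 31.7 and 28.8 CPM in cDC2 WT replicates 2 and 3. In cDC1 it had 0.711 to 1.15 CPM in KO and 189 to 346 CPM in WT. Of 478 genes called in cDC2 within replicates 2 and 3 with at least a 2-fold difference, 436 (91.2%) had the opposite sign in the pair numbered 1. For cDC1 that share was 1176 of 2607 (45.1%), so pair 1 of cDC1 also differed from replicates 2 and 3 in many genes. Leaving out cDC1 WT replicate 1 alone raised the genes called in cDC1 from 714 to 3052, with 5 members called in either fit. Because of the crossed pair in cDC2, the comparisons that use cDC2 are also given without both cDC2 libraries numbered 1. The labels were kept as they stand.

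The first comparison set KO against WT cDC1. In KO cDC1, 5 of the 8 genes rose and none fell: Clec4a1, Clec4a2, Clec4a3, Clec4a4 and Clec4b1, by 7.24-fold to 72.5-fold. Over all genes tested, 3.6% were called higher and 1.72% lower. The members' median log2 fold change was 3.31, beside -0.0008 for all genes. Clec4n, Clec4d and Clec4e did not pass the test. In these bulk samples, more cells that express a gene and more RNA per cell cannot be told apart.

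**Figure D1:**
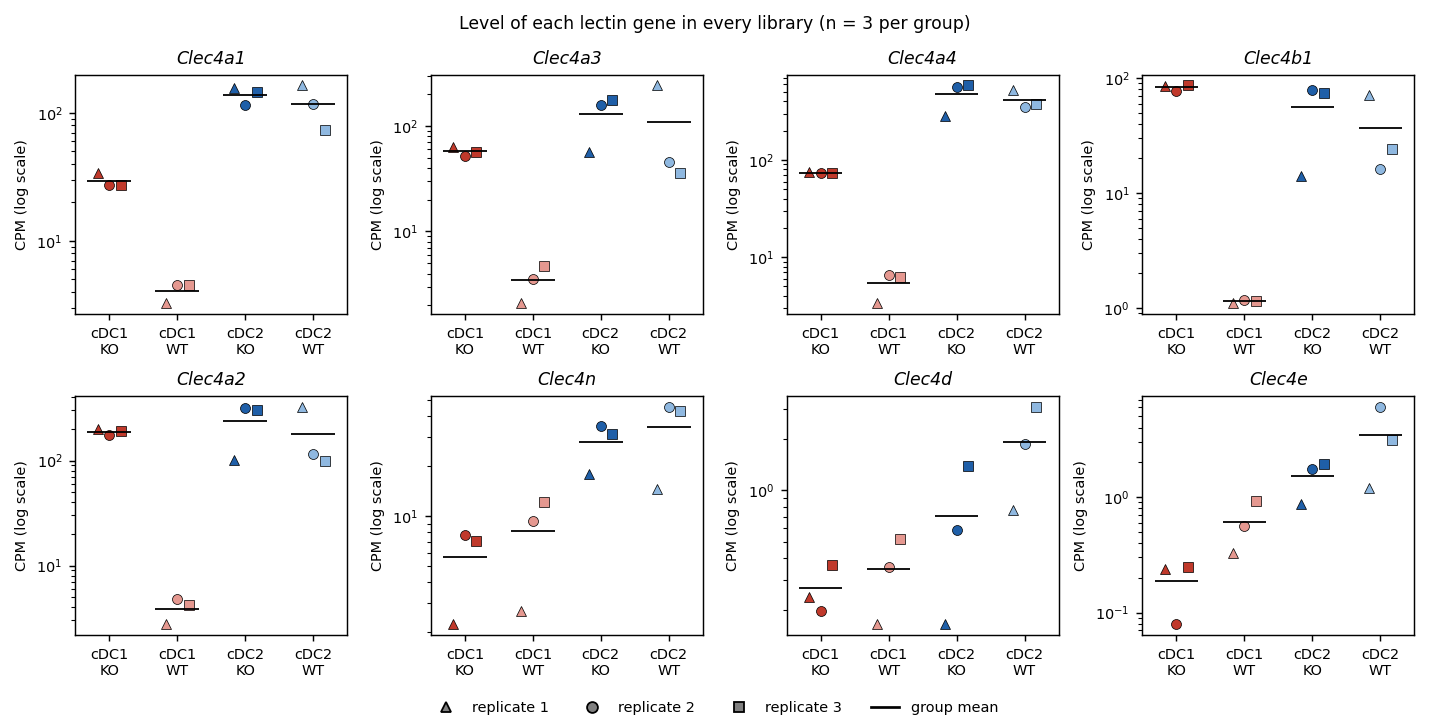
Level of each lectin gene in CPM (log scale) in every library of cDC1 KO, cDC1 WT, cDC2 KO and cDC2 WT; each marker is a library, its shape the replicate number, and the line the group mean (n = 3). In cDC1 the KO libraries of Clec4a1, Clec4a3, Clec4a4, Clec4b1 and Clec4a2 all lie above the WT libraries, and in cDC2 the triangles of replicate 1 lie apart from replicates 2 and 3 for several genes.

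Among the inhibitory receptors, Clec4a2 had 198, 174 and 190 CPM in KO cDC1, against 2.75, 4.75 and 4.16 CPM in WT cDC1. The log2 fold change was 5.59 (SE 0.58, edgeR adjusted p = 0.00013), a 48.1-fold difference. Every KO library stood far above every WT library, and the 3 KO libraries were close to one another. Clec4a4, the DCIR2 gene, had 75.5, 72.5 and 73.6 CPM in KO cDC1, against 3.35, 6.58 and 6.30 CPM in WT cDC1. Its log2 fold change was 3.77 (SE 0.35, edgeR adjusted p = 9.07e-05), and again the groups did not overlap.

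The DCIR relatives moved the same way. Clec4a3 had 63.1, 52.4 and 56.7 CPM in KO cDC1, against 2.09, 3.57 and 4.68 CPM in WT cDC1, a log2 fold change of 4.06 (SE 0.72, edgeR adjusted p = 0.0051). Clec4a1 had 34.1, 27.6 and 27.1 CPM in KO cDC1, against 3.24, 4.49 and 4.51 CPM in WT cDC1. At a log2 fold change of 2.86 (SE 0.30, edgeR adjusted p = 0.00013), it had the smallest estimate of the 5.

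Clec4b1, the activating receptor DCAR, had the largest estimate. It had 86.0, 77.4 and 86.4 CPM in KO cDC1, against 1.10, 1.17 and 1.16 CPM in WT cDC1, a log2 fold change of 6.18 (SE 0.74, edgeR adjusted p = 0.00036). All KO libraries were high and all WT libraries were near 1 CPM. Non-overlapping, higher KO libraries occurred in 15.5% of all genes tested. These 5 genes stayed called in all 20 other fits that were run.

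The remaining activating receptors behaved differently. Clec4n (Dectin-2) had 2.23, 7.74 and 7.12 CPM in KO cDC1, against 2.69, 9.34 and 12.3 CPM in WT cDC1, a log2 fold change of -0.51 (SE 0.59, edgeR adjusted p = 0.69). In either genotype replicate 1 was the lowest, and the groups overlapped. Clec4d (MCL) was near the limit of detection, with 5 to 9 reads per library in KO cDC1 and 3 to 9 in WT cDC1, and the difference was not detectable at this depth (log2 fold change -0.37, SE 0.85, edgeR adjusted p = 0.86).

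Clec4e (Mincle) had 0.239, 0.079 and 0.246 CPM in KO cDC1, which is 2 to 6 reads, against 0.330, 0.561 and 0.925 CPM in WT cDC1, which is 6 to 16 reads. All KO libraries lay below all WT libraries, as did those of 11.4% of genes tested, and the log2 fold change of -1.66 did not pass (SE 0.74, edgeR adjusted p = 0.25). Within replicates 2 and 3 Clec4e was called at -2.18 (edgeR adjusted p = 0.032) and Clec4n at -0.56 (edgeR adjusted p = 0.023). That fit called 47.8% of all genes, 22.9% of them as lower.

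The 5 genes that rose lie side by side at the low-coordinate end of the cluster. In GRCm38 the 8 genes span 368 kb, chr6:122921848-123289871, in the order Clec4a1, Clec4a3, Clec4a4, Clec4b1, Clec4a2, Clec4n, Clec4d and Clec4e. All but Clec4e are on the plus strand. The boundary between both sets of genes falls within a stretch that holds Clec4b2, a further lectin gene between Clec4a2 and Clec4n that encodes the activating receptor DCAR1. Clec4b2 had 29.6, 22.1 and 26.7 CPM in KO cDC1, against 26.4, 40.7 and 54.1 CPM in WT cDC1. The groups overlapped and its log2 fold change was -0.63 (SE 0.53, edgeR adjusted p = 0.57).

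**Figure D2:**
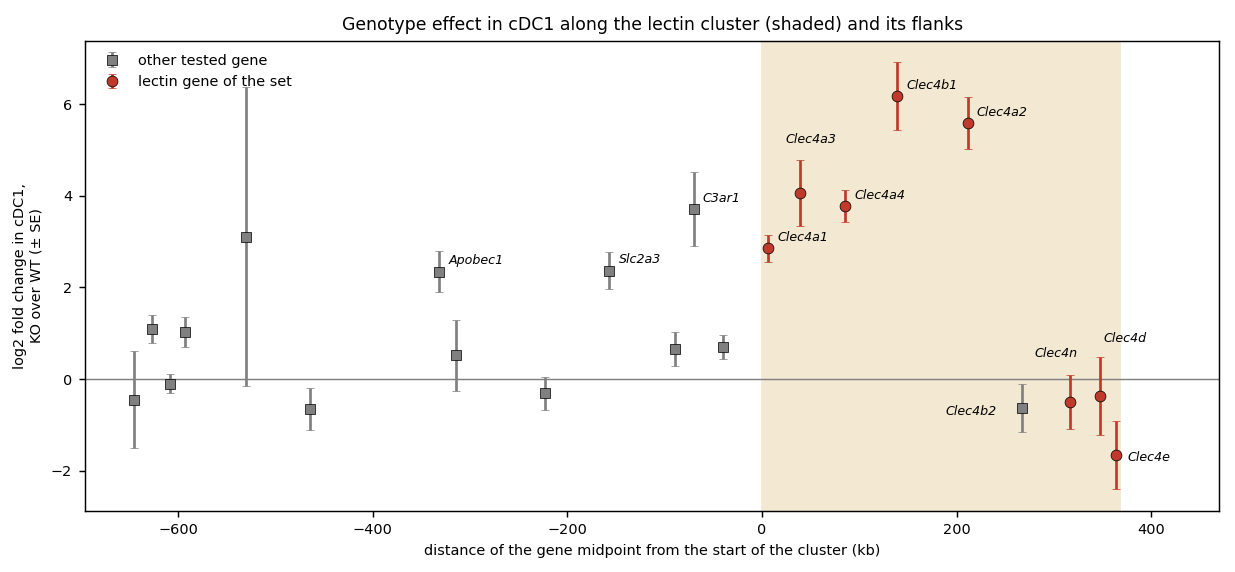
Log2 fold change in cDC1, KO over WT, with its SE (vertical bars), against the distance in kb of each gene's midpoint from the start of the cluster, for the 8 lectin genes (circles) and for the other tested genes within 1 Mb (squares). The 5 genes from Clec4a1 to Clec4a2 lie between 2.86 and 6.18, and Clec4b2, Clec4n, Clec4d and Clec4e lie below 0.

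Around the cluster, 14 further genes within 1 Mb were tested, and 3 of them (21.4%) rose in KO cDC1 while none fell. Among all genes 5.32% were called, 3.6% as higher. Within 5 Mb, 93 genes were tested, and 10 were called higher and 1 lower (11.8%). Those that rose within 1 Mb are few, and a local effect was not tested. The 3 that rose within 1 Mb all lie on the side of Clec4a1. C3ar1, the receptor for the complement fragment C3a, averaged 4.54 CPM in KO cDC1 and 0.340 CPM in WT cDC1 (log2 fold change 3.71, SE 0.80, edgeR adjusted p = 0.018). Slc2a3, a glucose transporter, averaged 34.1 and 6.60 CPM in KO and WT cDC1 (log2 fold change 2.37, SE 0.40, edgeR adjusted p = 0.0040). Apobec1, a cytidine deaminase that edits Apob mRNA, averaged 19.4 and 3.80 CPM in KO and WT cDC1 (log2 fold change 2.35, SE 0.44, edgeR adjusted p = 0.0071). The next genes by p did not pass: Gm6637 at 1.09, Phc1 at 1.03 and Necap1 at 0.70 (log2). On the far side of Clec4e the genes within 1 Mb belong to the Vmn2r pheromone receptor family, and none of these was detected above the filter.

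Promoter windows of 300 bases, from 250 before to 50 after a start site, were in RefSeq's GRCm38.p6 set for 6 of the 8 genes; Clec4a4 and Clec4n had none there. They are shown because genes called with large rises and genes that did not pass lie in the same cluster. AGAGGAA, the core recognised by the myeloid factor PU.1, was searched on both strands, as were 2 longer elements given here by name, the ETS-IRF composite element and the core of the interferon-stimulated response element. AGAGGAA is in 10.4% of 32851 windows, the composite element in 2.7% and the response element core in 3.4%. These 3 motifs, the only ones searched, were chosen after the sequences had been seen. Windows are 5′ to 3′ on the gene's strand, and capitals mark motif matches in either orientation, which overlap in some places. The windows are chr6:122921598-122921897 (plus) for Clec4a1, chr6:123049712-123050011 (plus) for Clec4b1, chr6:123122440-123122739 (plus) for Clec4a2 and chr6:123289822-123290121 (minus) for Clec4e.
Clec4a1: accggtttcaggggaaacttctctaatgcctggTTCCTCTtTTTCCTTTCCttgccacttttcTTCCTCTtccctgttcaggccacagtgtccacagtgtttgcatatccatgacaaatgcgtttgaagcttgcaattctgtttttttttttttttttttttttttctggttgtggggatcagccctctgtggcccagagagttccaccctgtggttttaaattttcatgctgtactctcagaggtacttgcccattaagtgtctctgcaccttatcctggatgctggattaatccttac
Clec4b1: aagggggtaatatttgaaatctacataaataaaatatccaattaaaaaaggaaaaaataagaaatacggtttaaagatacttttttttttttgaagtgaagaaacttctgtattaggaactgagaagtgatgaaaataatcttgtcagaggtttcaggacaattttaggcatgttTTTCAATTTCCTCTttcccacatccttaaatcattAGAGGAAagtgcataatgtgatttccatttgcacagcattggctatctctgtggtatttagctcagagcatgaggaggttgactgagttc
Clec4a2: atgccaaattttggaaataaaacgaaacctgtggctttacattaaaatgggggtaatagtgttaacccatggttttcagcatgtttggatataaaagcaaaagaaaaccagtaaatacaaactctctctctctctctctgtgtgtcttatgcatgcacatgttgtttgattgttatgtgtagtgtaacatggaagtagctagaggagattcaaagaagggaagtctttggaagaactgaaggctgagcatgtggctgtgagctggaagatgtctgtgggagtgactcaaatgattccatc
Clec4e: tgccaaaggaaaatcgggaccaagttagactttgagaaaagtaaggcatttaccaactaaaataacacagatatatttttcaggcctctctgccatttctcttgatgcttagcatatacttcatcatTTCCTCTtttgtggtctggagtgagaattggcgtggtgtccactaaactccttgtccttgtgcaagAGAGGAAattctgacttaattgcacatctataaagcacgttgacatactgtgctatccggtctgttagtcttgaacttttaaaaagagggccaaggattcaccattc

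AGAGGAA matched in 5 of the 6 genes with a window. They were Clec4a1, Clec4a3 (1 of its 2 windows) and Clec4b1, which rose in KO cDC1, and Clec4d and Clec4e, which did not pass. Clec4a2, with a 48.1-fold difference, had no match to any of the 3 motifs in its window. The composite element matched in Clec4a1 alone among the members with a window, and the response element core in Clec4b1 and Clec4d. Clec4a4 and Clec4n had no window, and Clec4d and Clec4e had too few reads in cDC1 to show whether they changed. These matches therefore cannot tell whether a motif goes with the rises, and this was not tested.

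Some of the genes resemble one another in sequence, which bears on how reads were assigned. The coding sequences of Clec4a2 and Clec4b1 are 87.1% identical over the aligned part, and those of Clec4a2 and Clec4a4 85.7%. Of all 50-base stretches, 15.7% in Clec4a4 and 8.69% in Clec4b1 also occur in Clec4a2, whereas Clec4a1, Clec4a3, Clec4d and Clec4e share none. The treatment of reads that fit several genes is not given in the sources used here. The values of Clec4a2, Clec4a4 and Clec4b1 are uncertain to that extent, and those of Clec4a1 and Clec4a3, which also rose, are not touched by shared stretches of this length.

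In cDC2 the KO and WT libraries were compared in the same way. With all libraries, 0 of the 8 genes and 0 of 13415 genes were called by edgeR, and DESeq2 also called 0; at an unadjusted p below 0.05 there were 271 genes with edgeR and 394 with DESeq2. The share called was thus 0%. Log2 fold changes of the members ran between -1.42 for Clec4d and 0.59 for Clec4b1. For Clec4a2, Clec4a3, Clec4a4 and Clec4b1 the library labelled replicate 1 was the lowest in KO and the highest in WT, whereas Clec4a1 was highest in replicate 1 of either genotype.

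**Figure D3:**
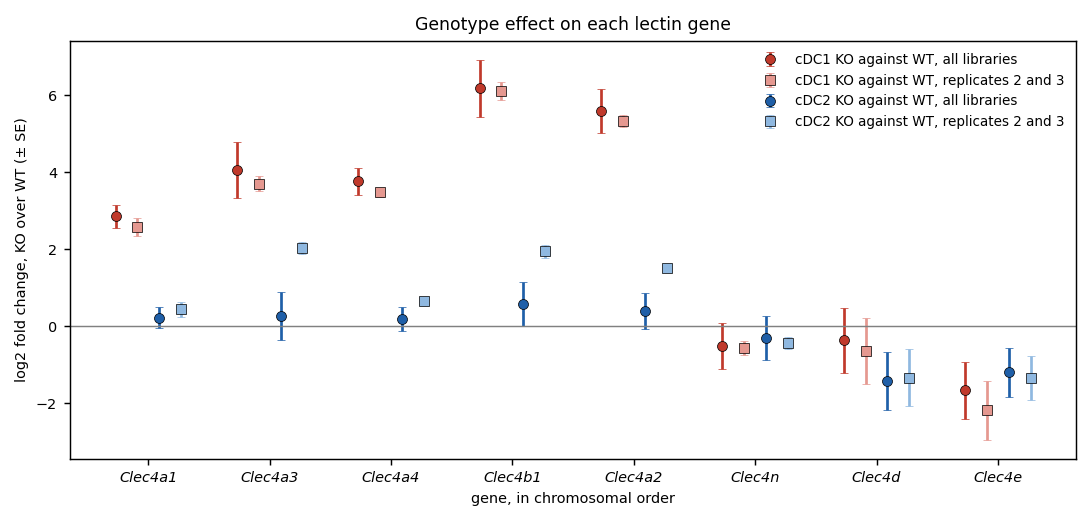
Log2 fold change of KO over WT with its SE for each lectin gene, in cDC1 (red) and cDC2 (blue), from all libraries (circles) and from replicates 2 and 3 (squares). The 2 red values of each gene lie close together, while the blue squares of Clec4a3, Clec4b1 and Clec4a2 lie at 1.52 to 2.02, above the blue circles at 0.27 to 0.59.

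Clec4a2 had 100 CPM in the library labelled cDC2 KO replicate 1 and 313 and 303 CPM in the other KO libraries, against 327 CPM in the library labelled cDC2 WT replicate 1 and 115 and 99.6 CPM in the other WT libraries. Clec4a3 had 56.0, 159 and 175 CPM in cDC2 KO, against 242, 45.9 and 35.7 CPM in cDC2 WT. Clec4b1 had 14.0, 79.6 and 73.6 CPM in cDC2 KO, against 70.7, 16.3 and 24.0 CPM in cDC2 WT. For these 3 genes the order of the genotypes in the pair numbered 1 was the reverse of that in replicates 2 and 3.

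Within replicates 2 and 3, 4 genes rose in KO cDC2, beside 3.35% of all genes. The log2 fold changes were 1.52 for Clec4a2 (SE 0.12, edgeR adjusted p = 1.69e-05), 2.02 for Clec4a3 (SE 0.15, edgeR adjusted p = 1.69e-05), 1.94 for Clec4b1 (SE 0.17, edgeR adjusted p = 4.86e-05) and 0.67 for Clec4a4 (SE 0.10, edgeR adjusted p = 0.0016). When the 2 cDC2 libraries numbered 1 were left out and all cDC1 libraries kept, a choice made after seeing the data, 3 genes rose, beside 0.464% of all genes. They were Clec4a2 (1.52, edgeR adjusted p = 0.024), Clec4a3 (2.03, edgeR adjusted p = 0.022) and Clec4b1 (1.93, edgeR adjusted p = 0.0043), and Clec4a4 had 0.67 (edgeR adjusted p = 0.41).

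Clec4a4 was the most abundant of the lectin genes in cDC2, with 283, 567 and 584 CPM in KO, against 528, 350 and 373 CPM in WT. Clec4a1 had 156, 116 and 145 CPM in cDC2 KO, against 164, 117 and 73.7 CPM in cDC2 WT, and the groups overlapped. It did not pass in either restricted fit (log2 fold change 0.44 within replicates 2 and 3, edgeR adjusted p = 0.18).

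Clec4n had 18.1, 34.9 and 31.2 CPM in cDC2 KO, against 14.6, 45.9 and 43.3 CPM in cDC2 WT. Clec4e had 0.878, 1.74 and 1.93 CPM in cDC2 KO, against 1.19, 6.09 and 3.10 CPM in cDC2 WT. Clec4d had 0.165, 0.588 and 1.38 CPM in cDC2 KO, against 0.771, 1.86 and 3.10 CPM in cDC2 WT. For all 3 genes the lowest library of each cDC2 group was replicate 1, in KO as in WT, which differs from the crossed order of Clec4a2, Clec4a3 and Clec4b1.

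Genes of other myeloid cells varied between libraries too. The 9 neutrophil markers summed to 7.52, 11.9 and 16.9 CPM in cDC1 KO, against 3.74, 17.1 and 26.0 CPM in cDC1 WT, and to 164 to 166 CPM in cDC2 KO, against 74.2, 200.4 and 197 CPM in cDC2 WT. None of the 7 tested was called between genotypes in either subset, but in cDC2 with all libraries 0 of 13415 genes were called. Ly6g, which defines neutrophils, was at 0 to 0.055 CPM in every library. Members of this list moved in different directions in cDC2. Mmp9, a matrix protease that made up the largest part of the sum there, had 155, 78.7 and 91.2 CPM in cDC2 KO, against 61.6, 99.3 and 85.2 CPM in cDC2 WT, and Csf3r was likewise highest in replicate 1 of cDC2 KO and lowest in replicate 1 of cDC2 WT. S100a8 had 0.549, 23.5 and 21.5 CPM in cDC2 KO, against 2.77, 28.6 and 24.0 CPM in cDC2 WT, and S100a9 had the same order, with replicate 1 lowest in either genotype. C1qa, a macrophage gene, had 3.66, 11.3 and 11.8 CPM in cDC1 KO, against 4.07, 21.4 and 27.1 CPM in cDC1 WT, with replicate 1 lowest, but the 10 red pulp macrophage markers together summed to 518, 316 and 301 CPM in cDC2 KO, against 270, 535 and 476 CPM in cDC2 WT. The part of such cells in the values of Clec4n, Clec4d and Clec4e was not tested.

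The difference between the subsets in the genotype effect was tested directly. It was called for 4 of the 8 genes, all with a larger KO effect in cDC1, beside 1.27% of all genes called in that direction. The estimates were 5.59 for Clec4b1 (SE 0.90, edgeR adjusted p = 0.0067), 5.19 for Clec4a2 (SE 0.71, edgeR adjusted p = 0.0024), 3.57 for Clec4a4 (SE 0.45, edgeR adjusted p = 0.0017) and 2.63 for Clec4a1 (SE 0.39, edgeR adjusted p = 0.0042). Clec4a3 had 3.79 and did not pass (SE 0.92, edgeR adjusted p = 0.073). With mouse pool as a block, since a cDC1 and a cDC2 library share each pool, Clec4a1 lost its call (2.56, edgeR adjusted p = 0.051) and the other 3 kept theirs.

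Without both cDC2 libraries numbered 1 the difference was smaller, at 4.25 for Clec4b1, 4.07 for Clec4a2, 3.10 for Clec4a4 and 2.41 for Clec4a1, and each stayed called. Clec4a3 was then called at 2.03 (edgeR adjusted p = 0.026), which makes 5 of 8 members, beside 2.03% of all genes called in that direction. Clec4n, Clec4d and Clec4e had estimates of -0.21, 1.05 and -0.47 and did not pass with all libraries.

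Between the WT subsets, 7 of the 8 genes were lower in cDC1 than in cDC2, beside 10.9% of all genes called lower. Clec4a4 differed most, at a log2 fold change of -6.27 (SE 0.39, edgeR adjusted p = 4.86e-07), followed by Clec4a2 at -5.54, Clec4b1 at -5.01, Clec4a3 at -4.97 and Clec4a1 at -4.86. Clec4e at -2.51 (edgeR adjusted p = 0.019) and Clec4n at -2.09 (edgeR adjusted p = 0.025) also passed, and Clec4d at -2.42 did not (edgeR adjusted p = 0.053). Without both cDC2 libraries numbered 1, all 8 members were called lower, beside 11.9% of all genes, with Clec4d at -2.81 (edgeR adjusted p = 0.010). Estimates then were -6.06 for Clec4a4, -4.79 for Clec4a2, -4.54 for Clec4a1, -4.13 for Clec4b1 and -3.57 for Clec4a3, so that the order of the last 3 differed from that with all libraries. Leaving out cDC2 WT replicate 1 alone gave -4.78 for Clec4a2, -4.13 for Clec4b1 and -3.57 for Clec4a3, each smaller by more than 1.5 times in fold. With all libraries, the calls of Clec4e and Clec4n rest on single libraries, since leaving out cDC1 WT replicate 1 or 2 or cDC2 WT replicate 2 raised their adjusted p to between 0.053 and 0.098; Clec4n also lost its call without cDC2 WT replicate 3. Clec4b2 ran the other way, as did 10.4% of all genes called higher in cDC1, with 26.4, 40.7 and 54.1 CPM in WT cDC1, against 0.912, 0.000 and 0.182 CPM in WT cDC2 (log2 fold change 6.58, SE 0.72, edgeR adjusted p = 3.17e-05).

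Between the KO subsets, 4 of the 8 genes were lower in cDC1, beside 8.43% of all genes. Clec4a4 had a log2 fold change of -2.69 (SE 0.33, edgeR adjusted p = 0.00013) and Clec4a1 of -2.23 (SE 0.28, edgeR adjusted p = 0.00018). Clec4e had -2.98 (edgeR adjusted p = 0.015) and Clec4n -2.30 (edgeR adjusted p = 0.021), and either lost its call when certain single libraries were left out. For Clec4e these were cDC1 KO replicate 2 and cDC2 KO replicate 3, and for Clec4n cDC1 KO replicates 1 and 3 and cDC2 KO replicates 2 and 3.

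The genes with the largest rises in KO cDC1 had no called subset difference among the KO libraries. Clec4b1 had 77.4 to 86.4 CPM in KO cDC1, against 14.0 to 79.6 CPM in KO cDC2 (log2 fold change 0.58, SE 0.57, edgeR adjusted p = 0.52). Clec4a2 had -0.35 (SE 0.47, edgeR adjusted p = 0.65) and Clec4a3 -1.18 (SE 0.63, edgeR adjusted p = 0.22). Without both cDC2 libraries numbered 1, Clec4a2 at -0.72 (edgeR adjusted p = 0.031) and Clec4a3 at -1.54 (edgeR adjusted p = 0.0027) were called lower in cDC1, beside 13.7% of all genes, and Clec4b1 at 0.12 was not (edgeR adjusted p = 0.66).

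Marker genes of cDC2 moved with these lectin genes. In KO cDC1 7 of 8 cDC2 markers were higher than in WT cDC1, beside 3.6% of all genes called higher and 1.72% lower. Their summed level was 452 to 460 CPM in KO cDC1, against 59.8 to 83.1 CPM in WT cDC1. The same sum was 1576 to 2296 CPM in KO cDC2, well above KO cDC1, but single markers differed in this. Sirpa averaged 102 CPM in KO cDC1 and 754 CPM in KO cDC2, and Itgam 125 and 136 CPM. The lectin genes differed likewise: Clec4b1 in KO cDC1 reached the level of KO cDC2, whereas Clec4a4 and Clec4a1 stayed below it. The 8 cDC1 markers summed to 5927 to 6344 CPM in KO cDC1, against 6986 to 10033 CPM in WT cDC1. Of these, 1 was called lower and 0 higher, at a median log2 fold change of -0.62. Single markers differed: Itgae averaged 10.8 CPM in KO cDC1 and 176 CPM in WT cDC1, and Cd8a 1509 and 996 CPM. Monocyte markers summed to 554 to 711 CPM in KO cDC1, against 80.2 to 161 CPM in WT cDC1, with 2 of 7 tested called higher and Vcan at 0 to 0.040 CPM. Most of that sum was Ccr2, a chemokine receptor, at 525 ± 87.1 CPM in KO cDC1 and 69.4 ± 38.9 CPM in WT cDC1 (SD, n = 3 each), and the other called gene was Ms4a4c, at 60.6 ± 3.67 and 12.9 ± 2.96 CPM in the same groups. Cd14 averaged 19.5 and 21.2 CPM, Ly6c2 4.79 and 5.43 CPM and Chil3 0.255 and 0.628 CPM in KO and WT cDC1, and none of these passed. Red pulp macrophage markers summed to 164 to 236 CPM in KO cDC1, against 129 to 241 CPM in WT cDC1, with 1 of 10 called higher and 1 lower. In this list Cd163 had 27.4, 25.4 and 24.6 CPM in KO cDC1, against 1.15, 1.38 and 1.56 CPM in WT cDC1. Vcam1 went the other way, with averages of 40.4 CPM in KO cDC1 and 73.6 CPM in WT cDC1. The part of other cells in the rises was not tested.

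The order of the genes by level per length differed between the groups. In cDC1 KO, Clec4b1 was highest at 106 ± 6.52 CPM per kb (SD, n = 3), followed by Clec4a2 at 71.6 ± 4.55, Clec4a4 at 67.7 ± 1.39, Clec4a3 at 43.1 ± 4.07 and Clec4a1 at 19.0 ± 2.49. Clec4a2 and Clec4a4 overlapped, and the other neighbours in this order did not. Clec4n followed at 4.58 ± 2.43, and Clec4d and Clec4e were below 0.3 CPM per kb in every library.

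In cDC1 WT no lectin gene of the set exceeded 9.85 CPM per kb in any library. Clec4n at 6.50 ± 3.94 and Clec4a4 at 4.96 ± 1.64 CPM per kb overlapped at the top, and Clec4b1 at 1.46 ± 0.05 overlapped with Clec4a2 at 1.49 ± 0.39. Clec4b1 thus was the first of the genes in cDC1 KO and the sixth in cDC1 WT.

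In cDC2 the first was Clec4a4, at 438 ± 155 CPM per kb in KO and 382 ± 88.7 in WT (SD, n = 3 each), separate from all the others. Clec4a3, Clec4a2, Clec4a1 and Clec4b1 followed, with overlapping libraries, between 71.1 and 97.9 CPM per kb in KO and between 47.2 and 81.1 in WT. By group mean Clec4n was next, at 22.6 ± 7.09 in KO and 27.8 ± 14.0 in WT, and it overlapped with Clec4b1 in either genotype. In cDC2 WT replicates 2 and 3, Clec4a1 was second, at 75.0 and 47.3 CPM per kb. There Clec4n, at 36.9 and 34.7, lay above Clec4a3 at 34.5 and 26.8 and Clec4b1 at 20.8 and 30.7. Clec4d and Clec4e were last and overlapped in either genotype.

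**Figure D4:**
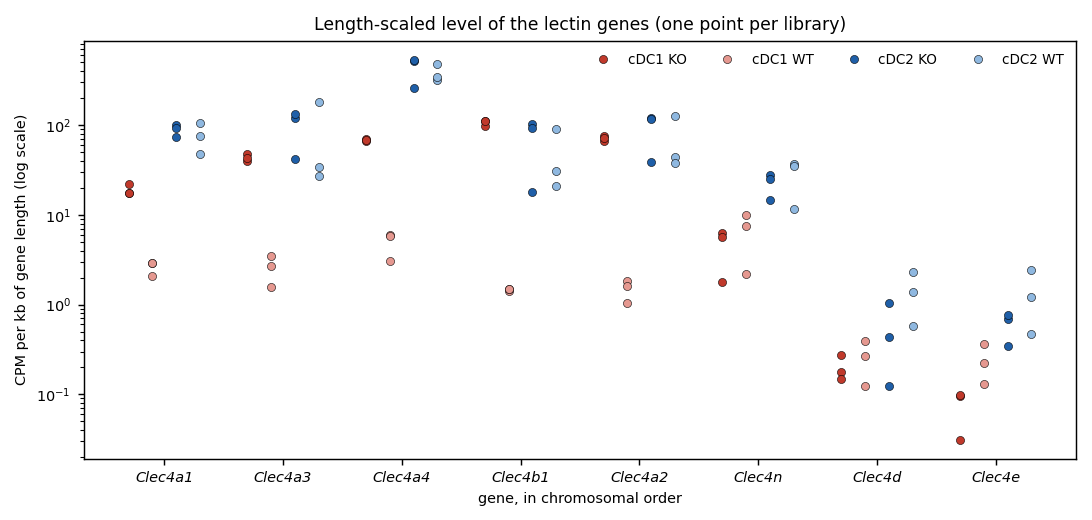
Level of each lectin gene in CPM per kb of gene length (log scale), with a point for each library of cDC1 KO, cDC1 WT, cDC2 KO and cDC2 WT. Clec4a4 is the highest gene in cDC2, at 259 to 535 CPM per kb in KO and 320 to 484 in WT, and Clec4b1 the highest in cDC1 KO, at 98.7 to 110 CPM per kb.

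As shares of the summed level of all 8 genes per length, Clec4b1 made up 34.0% ± 0.77 in cDC1 KO and 8.11% ± 3.47 in cDC1 WT, and Clec4a2 made up 22.9% ± 0.32 and 7.71% ± 1.47 in the same groups (SD, n = 3 each). Clec4a4 made up 54.2% ± 0.65 in cDC2 KO and 57.9% ± 8.64 in cDC2 WT. The sum itself was 295 to 326 CPM per kb in cDC1 KO and 11.6 to 25.9 in cDC1 WT. In replicates 1, 2 and 3 of cDC2 it was 472, 964 and 996 in KO, against 999, 535 and 523 in WT. Replicate 1 was thus crossed here as for Clec4a2.

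Genes that carry the signal of these receptors were followed as lists. Of 14 genes of the activating chain, its kinases and the CARD9 module, 2 rose and none fell in KO cDC1. Over all genes tested, 3.6% were called higher and 1.72% lower. Fcer1g, the chain that activating members need, had 424, 373 and 416 CPM in KO cDC1, against 21.7, 29.2 and 33.4 CPM in WT cDC1 (log2 fold change 3.85, SE 0.30, edgeR adjusted p = 3.24e-05). In cDC2 it had 374, 686 and 639 CPM in KO, against 670, 456 and 430 CPM in WT, with replicate 1 crossed as for Clec4a2. Fgr, a Src family kinase, had 176 to 182 CPM in KO cDC1, against 56.6 to 64.4 CPM in WT cDC1 (log2 fold change 1.59, edgeR adjusted p = 0.00063). Syk had a log2 fold change of 0.88 (edgeR adjusted p = 0.23) and Card9 of 0.30 (edgeR adjusted p = 0.71). The median of the list was 0.46, beside -0.0008 for all genes.

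**Figure D5:**
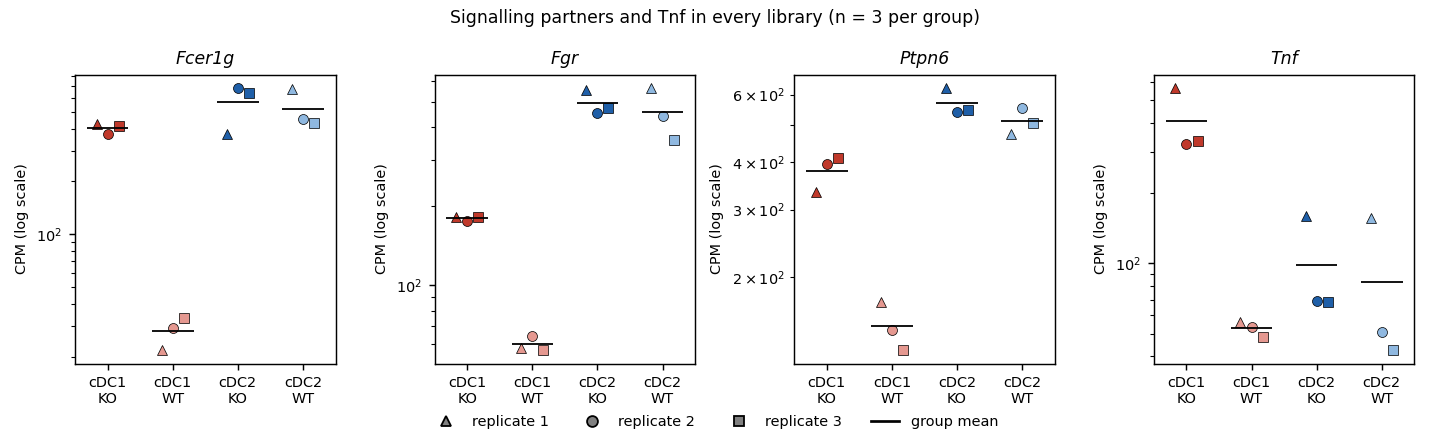
Level in CPM (log scale) of Fcer1g, Fgr, Ptpn6 and Tnf in every library, with group means as lines (n = 3) and marker shapes for the replicate number. For all 4 genes each KO cDC1 library lies above each WT cDC1 library.

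Of 4 phosphatase genes linked to inhibitory receptors, Ptpn6 rose in KO cDC1, at 334, 395 and 409 CPM, against 172, 146 and 129 CPM in WT cDC1 (log2 fold change 1.35, SE 0.20, edgeR adjusted p = 0.0013). Ptpn11 at 0.19 and Inpp5d at -0.01 did not pass. Among 13 cytokines and related products made after activating lectin signals, 11 were tested and 3 rose: Tnf (2.95, edgeR adjusted p = 0.0042), Ptgs2, a prostaglandin synthase (2.10, edgeR adjusted p = 0.011), and the chemokine Ccl3 (1.43, edgeR adjusted p = 0.023). Tnf had 567, 324 and 335 CPM in KO cDC1, against 56.1, 53.5 and 48.6 CPM in WT cDC1. Estimates below 0 in this list were those of Il6 (-0.94, edgeR adjusted p = 0.085), Il12b (-0.78) and Cxcl2 (-0.25), and none of these passed. Of all genes tested, 3.6% were called higher in KO cDC1. In cDC2 none of the genes of these 3 lists was called between KO and WT with all libraries. As 0 of 13415 genes were called there, this does not set the lists apart.

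Other C-type lectin receptors moved in both directions. Of 23, 21 were tested, 4 rose in KO cDC1 and 1 fell, beside 3.6% of all genes called higher and 1.72% lower. Clec5a, a receptor of monocytes, rose by 3.66 on the log2 scale, Clec7a (Dectin-1), which binds fungal beta-glucan, by 3.10, Clec10a, a galactose-type lectin, by 4.21, and Cd209a, a mouse relative of DC-SIGN, by 2.51 (edgeR adjusted p between 0.00013 and 0.0038). Clec10a and Cd209a also stand among the cDC2 markers. Cd207 (langerin) had 1.63, 1.11 and 2.42 CPM in KO cDC1, against 41.5, 165 and 184 CPM in WT cDC1 (log2 fold change -6.24, edgeR adjusted p = 0.00021). The list's median was 0.38, and the members' was 3.31.

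The genes most like each member over the 12 libraries were found by Pearson's r of log2 CPM, as a description, since the libraries share 6 mouse pools and the r mostly follows the 4 group levels. Clec4a1 was most like Fgr (0.996), Itgb3 (0.993) and Ltb (0.991), and Clec4a4 most like Ltb (0.996), Hilpda (0.993) and Ms4a6c (0.99). Clec4a2 was most like Adgre4 (0.995), Ccl9 (0.993) and Fcer1g (0.99), and Clec4b1 most like Pdgfb (0.993), F11r (0.983) and Ccl9 (0.982). For Clec4a3 these were Cyp4f18 (0.993), Clec10a (0.987) and Glul (0.986). Clec4n was most like Pilra (0.978), Pld3 (0.971) and Kat8 (0.964). Predicted genes, those named Gm with a number or Rik, were skipped in this search. Among the rest, no gene reached 0.95 for Clec4d or Clec4e. The nearest were Hsd11b1 (0.918), Mterf1b (0.91) and Xlr4d-ps (0.907) for Clec4d, and Tank (0.949), Mtmr6 (0.946) and Igkj4 (0.934) for Clec4e.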

How the data were processed

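Splenic cDC1 and cDC2 of Zfp366-/- and WT mice gave 12 polyA TruSeq libraries, 3 per group, grouped by the labels. The authors counted reads per gene with featureCounts on GRCm38 (mm10), per the submitters' processing notes; its version, the aligner, strand setting and treatment of shared reads are not given in the sources used here. The deposited table holds raw counts and gene lengths without normalization. RefSeq symbols matched 25275 of 27179 genes. Depth was 11330503 to 36761685 reads per library, and with n = 3 low counts such as those of Clec4d limit precision.

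Counts were fitted in edgeR 4.0.16 (R 4.3.3) with filterByExpr (13415 genes), TMM scaling and 4 group means over all libraries. Each SE was obtained by dividing the log2 fold change by the root of its F statistic. The code was tested on simulated data for KO against WT cDC1. It recovered 7 of 100 genes changed by 1 on the log2 scale and 68 of 100 changed by 2. Among the unchanged genes it called 3. A gene that did not pass may therefore still differ. The members, gene lists and tests were chosen with earlier results of these data known. Genes named are the 8 members and, per list, up to 4 called genes with the smallest p in cDC1. Named too are up to 6 neighbours within 1 Mb by p, Clec4b2, and 3 genes per member by r. Apold1, Syk, Card9, Ptpn11, Inpp5d, Il6, Il12b, Cxcl2 and single markers were named after their values were seen. Alternatives were RLE scaling, no filter, a gene-length offset, replicates 2 and 3 alone, each library left out, 6 libraries alone, replicate and pool blocks, and DESeq2 1.42.0.

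The labels give a mouse pool for every library, shared by a cDC1 and a cDC2 library; residual correlations within a pool were 0.259, 0.143 and 0.144 in KO and -0.205, -0.111 and -0.068 in WT. That libraries of a genotype come from separate pools is stated by the labels, so the spread within a group lies between pools. In the main fit each gene's spread was estimated over all 4 groups together. The SE and p-values in cDC1 therefore also carry the cDC2 libraries numbered 1. Without those libraries the SE in cDC1 went from 0.74 to 0.23 for Clec4b1 and from 0.58 to 0.24 for Clec4a2. The subset tests of the main fit took no account of the pools shared by cDC1 and cDC2.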

Additional observations from a re-analysis of the deposited data

Results flagged for a closer look

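The KO effect differed between cDC1 and cDC2, by the test of the difference itself, for Clec4a1 (2.63 on the log2 scale), Clec4a2 (5.19), Clec4a4 (3.57) and Clec4b1 (5.59), each larger in cDC1. Without both cDC2 libraries numbered 1, which go against their genotype labels, the same differences were 2.41, 4.07, 3.10 and 4.25. With mouse pool as a block, the call was lost for Clec4a1 (2.56, edgeR adjusted p = 0.051) and kept for the other 3.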

How the results depend on the processing

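The 5 members called in cDC1 kept their calls and direction in all 20 alternatives (members called 5 to 7), whereas counts over all genes moved. In cDC1 the 714 genes called became 6438 within replicates 2 and 3, 1318 with DESeq2, 1206 without both cDC2 libraries numbered 1, and 318 to 3052 with each library left out, the highest without cDC1 WT replicate 1. In cDC2 the 0 genes called became 1039 within replicates 2 and 3 and 122 without both libraries numbered 1, and the 0 members became 4 and 3. The subset difference in the KO effect, called for 190 genes, was called for 289 with the gene-length offset, 5157 within replicates 2 and 3, 480 with DESeq2, 336 without both cDC2 libraries numbered 1, and 110 to 501 with each library left out. The WT subset count of 2846 became 6391 within replicates 2 and 3 and 1537 from 6 libraries alone. The KO subset count of 2264 became 6620, 4172 and, without both cDC2 libraries numbered 1, 3716, with 1209 to 3382 when each library was left out. Members called there ran from 2 to 4 with each library left out, the lowest without cDC2 KO replicate 3.

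Signs changed only in estimates that were not called. With each library left out, Clec4d in cDC1 ran from -0.69 to 0.031, Clec4a3 in cDC2 from -0.14 to 1.67, Clec4a1 in cDC2 from -0.0175 to 0.54, and the subset difference of Clec4n from -0.62 to 0.22; that of Clec4n was 0.091 with the gene-length offset. Clec4a3's subset difference was called in 5 of 19 alternatives, among them DESeq2 (3.74, adjusted p = 0.0012). Among the WT subsets Clec4d was called in 7 of 20 alternatives, and Clec4e and Clec4n lost their calls with 6 libraries alone (adjusted p = 0.064 and 0.055). Among the KO subsets Clec4a3 was called with 6 libraries alone (-1.19, adjusted p = 0.047). The cause was not tested.

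With the mouse pool as a block, the subset difference was called for 116 genes in place of 190 and for 3 members in place of 4, and no other member's call changed. Replicate numbers did not pair KO and WT libraries (residual correlations 0.024, -0.067 and 0.106 in cDC1, -0.051, -0.047 and -0.055 in cDC2); with that number as a block, 489 genes and 5 members were called in cDC1 and 0 of either in cDC2.

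Depth limits Clec4d and Clec4e, which had 2 to 16 reads per cDC1 library.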
